A study of Mus musculus with 6 samples.

Results

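Fap, Sned1, Olfml3, Mn1, Runx1t1, Synpo, Nav3, Ak1 and Rnf182 are 9 genes of 18193 on the array whose transcripts were at least 2-fold higher in the proximal than in the distal mouse forelimb bud in every condition measured. They were chosen for that: the values that selected them are the proximal minus distal differences of the control, dKO and RA pairs of arrays, so those differences are given as a description and support nothing. In all, 24 of 10934 genes (0.219%) met the same criterion, 11 of them above background on every array, and the 9 are among those 11.

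The study profiled forelimb buds of CD1 mouse embryos at E10.5, cut into a proximal and a distal part, on 6 Affymetrix arrays, 1 for each part in each of 3 conditions. The control is labelled Ring1A-/- in its genotype and wild type in its description, and received no retinoic acid (RA). The dKO is labelled Prx1-Cre; Ring1A-/-; Ring1Bfl/fl, also without RA; Prx1-Cre acts in the early limb mesenchyme, so a conditional deletion through it is not directed at ectoderm or at muscle precursors. The RA group is labelled WT, and its mothers were given all-trans RA by oral gavage at E10.25 (100 mg/kg), so every RA comparison also changes the Ring1A genotype label. Control and dKO share the Ring1A-/- label; the sources used here do not say whether the control carries the Ring1B floxed allele or how many embryos an array holds. With 1 array per group no difference between 2 arrays has a replicate check.

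RING1A and RING1B are the ubiquitin ligases of Polycomb repressive complex 1, which keeps developmental genes silent in cells where they are not needed. In the early limb bud, RA from the flank favours the proximal programme, which forms the upper arm, while fibroblast growth factors from the ridge at the tip favour the distal programme. Transcripts that stay proximal when either system is altered include both mesenchymal genes and genes of cells that enter the limb from its base.

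Signals are the authors' MAS5 intensities on a linear scale, and the median of each array (59.5 to 76.1) was used as a floor below which a signal was not read. The forelimb T-box factor Tbx5 was above the floor on all arrays (847 to 1450), as was the mesenchyme factor Prrx1 (5540 to 6876). Of the hindlimb factors, Tbx4 was near the floor throughout (60.4 to 118), and Pitx1 was below it in control (8.46 and 6.22) and distal RA (5.55) and above it in dKO (114 proximally and 165 distally) and proximal RA (76.2). Ring1 had signals of 402 to 968 on the 4 arrays labelled Ring1A-/- and of 420 and 245 on those labelled WT, and Rnf2 (RING1B) of 1887 to 2147 on all 6; whether these probes lie in deleted sequence is not given, so neither checks the genotypes. The proximal RA array stood apart: across genes it correlated with the others at r = 0.927 to 0.951, while each of the others reached at least 0.974 with some array, and its 3'/5' ratios were the highest (GAPDH 1.60 against 1.28 to 1.39, actin 1.95 against 1.52 to 1.72). The mean signal of the BioB spike-in was 110 (proximal) and 123 (distal) in RA, where control and dKO arrays had 1083 to 1208. Both RA arrays also differed from the rest in the sex-linked Xist (12.9 and 29.5 against 3017 to 3688) and Eif2s3y (2783 and 3064 against at most 12.3). Every comparison of RA with control therefore also differs in these signals and in the spike-in. Effects of RA cannot be told apart from these differences.

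Windows of the RefSeq promoter table (GRCm38.p6) were read for 4 of the 9 genes. Any member entry on an excluded chromosome is not in that count, whereas the shares over all windows excluded none. The 250 bases before the start are shown for the 3 with a single listed start, because 2 of them, Rnf182 and Olfml3, had the most similar profiles of any member pair. Capitals mark matches, on either strand, to the MEIS core TGACAG, the nuclear receptor half-site AGGTCA, the PBX-HOX motif TGATNNAT or the RUNX core TGTGGT.
Sned1 (chr1:93235647-93235896, + strand): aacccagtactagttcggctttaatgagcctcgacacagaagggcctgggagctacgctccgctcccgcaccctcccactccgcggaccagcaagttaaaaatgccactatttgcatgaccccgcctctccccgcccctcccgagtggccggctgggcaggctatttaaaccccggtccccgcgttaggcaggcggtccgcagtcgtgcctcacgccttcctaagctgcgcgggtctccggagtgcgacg
Rnf182 (chr13:43615547-43615796, + strand): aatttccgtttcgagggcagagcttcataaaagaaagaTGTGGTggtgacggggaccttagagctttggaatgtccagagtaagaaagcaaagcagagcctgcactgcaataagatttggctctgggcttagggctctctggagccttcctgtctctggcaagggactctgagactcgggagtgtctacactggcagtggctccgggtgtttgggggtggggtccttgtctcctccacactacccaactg
Olfml3 (chr3:103738002-103738251, - strand): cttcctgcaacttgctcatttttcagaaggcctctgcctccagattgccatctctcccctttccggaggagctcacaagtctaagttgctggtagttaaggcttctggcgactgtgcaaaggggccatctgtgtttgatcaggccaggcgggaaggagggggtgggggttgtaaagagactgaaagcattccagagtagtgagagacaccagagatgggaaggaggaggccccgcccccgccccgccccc
Of 32851 promoter windows of that length in the table, 15.9% hold the MEIS core, 14.0% the half-site, 7.68% the PBX-HOX motif and 14.0% the RUNX core; windows can overlap where a gene has several starts. The only match in these 3 windows was 1 RUNX core in Rnf182, starting 212 bases before the start. The Sned1 window is rich in CG dinucleotides (23, with 64.0% G and C), whereas Rnf182 and Olfml3 have 5 and 6 (53.6% and 57.6%), next to a median of 6 (52.4%) over all windows. The 4 listed starts of Ak1 had 1, 0, 1 and 0 MEIS cores, 1, 0, 2 and 0 half-sites, and 1, 0, 0 and 1 RUNX cores. These matches describe letters in a short window; no binding was measured here.

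Of the 19 probe sets annotated to the 9 genes, 13 were above the floor on at least 1 array and 11 were 2-fold higher proximally in all pairs. Each gene is read below through its brightest probe set (by mean log2 signal over the arrays), and each of these 9 was above the floor on all 6 arrays. Fap, Sned1, Mn1 and Olfml3 have a single probe set. The second probe sets of Synpo, Ak1 and Rnf182 and both further ones of Nav3 were at the floor on every array, so these genes rest on 1 probe set as well.

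Of the genes for surface and matrix proteins, Fap and Sned1 had the widest control differences of the 9 and Olfml3 the narrowest. Fap, a membrane serine protease of the prolyl peptidase family found on mesenchymal cells, read 634 proximally against 65.4 distally in control, 518 against 84.7 in dKO and 1948 against 78.3 in RA. The 3 distal signals lie just above the floors of 59.5, 76.1 and 68.2, so the proximal excess of 9.7, 6.11 and 24.9-fold is against a part where the probe set read little. Sned1, a matrix glycoprotein with a nidogen-like domain, read 771 proximally against 131 distally in control, 1133 against 506 in dKO and 3129 against 358 in RA. Its proximal excess was 5.87-fold in control, 2.24-fold in dKO and 8.74-fold in RA. The distal dKO and the proximal RA arrays are the ones that stand out for Sned1. Olfml3, a secreted olfactomedin-domain protein that binds BMP1 and chordin, read 357 proximally against 161 distally in control, 681 against 323 in dKO and 503 against 148 in RA (2.22, 2.11 and 3.39-fold). Both dKO parts were thus higher than the same control part, with the ratio between the parts little different.

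Genes linked to transcription gave intermediate differences. Mn1, a transcriptional coregulator required for the skull vault and palate, read 675 proximally against 188 distally in control, 1263 against 548 in dKO and 976 against 134 in RA. The proximal excess was 3.6, 2.3 and 7.29-fold, and the distal dKO signal came close to the proximal control signal. Runx1t1 (ETO), a corepressor that recruits histone deacetylases, read 1145 proximally against 333 distally in control, 1534 against 623 in dKO and 901 against 227 in RA (3.44, 2.46 and 3.96-fold). For Runx1t1 both RA arrays were the lowest of their part. Its other probe sets do not all show that, as described below.

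The remaining genes encode cytoskeletal and enzymatic proteins. Synpo, which binds actin and alpha-actinin, read 2711 proximally against 636 distally in control, 2210 against 1056 in dKO and 3305 against 1101 in RA (4.26, 2.09 and 3-fold). Nav3, a neuron navigator related to microtubule-guiding proteins, read 292 proximally against 85.3 distally in control, 352 against 107 in dKO and 512 against 92.7 in RA (3.42, 3.28 and 5.52-fold). The distal signals of Nav3 were, like those of Fap, near the floor. Ak1, the cytosolic adenylate kinase that balances ATP, ADP and AMP, read 801 proximally against 337 distally in control, 859 against 367 in dKO and 817 against 258 in RA (2.37, 2.34 and 3.17-fold). Ak1 was the steadiest of the 9, its 3 proximal signals lying within 801 to 859. Rnf182, a membrane-bound RING-type ubiquitin ligase, read 249 proximally against 112 distally in control, 544 against 250 in dKO and 384 against 115 in RA (2.23, 2.17 and 3.34-fold).

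**Figure D1:**
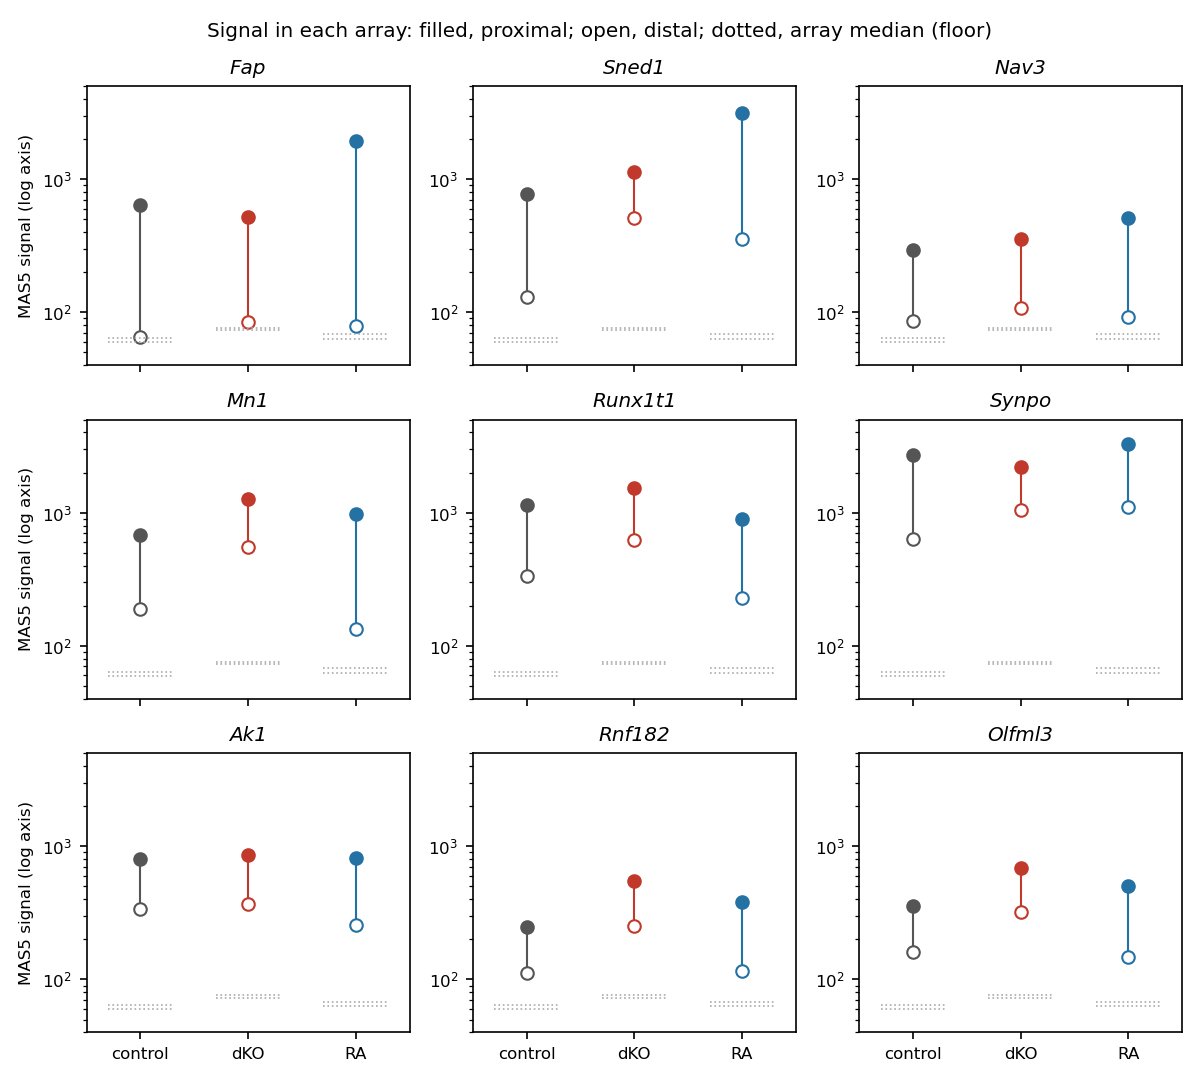
MAS5 signal (log axis) of the 9 genes on each of the 6 arrays, 1 panel per gene; filled points are proximal arrays, open points distal arrays, and dotted lines the median of each array used as its floor. In every panel and condition the filled point is above the open one; the Fap distal points (65.4, 84.7 and 78.3) lie close to the floor, and the Rnf182 distal dKO point (250) is level with its proximal control point (249).

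For 8 of the 9 genes the lowest proximal signal exceeded the highest distal one, a pattern that 668 of 12147 genes (5.5%) showed; since the rule used these differences, nothing is read from the comparison. Rnf182 was the exception, with 249 in the proximal control and 250 in the distal dKO array. At the edge of the criterion, Synpo (log2 1.06 in dKO), Olfml3 (1.08) and Rnf182 (1.12) were the members nearest to 2-fold in their weakest pair. Dact1 was just inside (1.0 in dKO, not a member) and Timp1 and Irx5 just outside (0.999 and 0.998 in dKO), among 9 genes between 0.9 and 1.

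The proximal minus distal difference was smallest in the dKO pair for 9 of 9 genes (with median scaling or quantile normalization for 5, not for Nav3, Ak1, Rnf182 and Olfml3) and largest in the RA pair for 8 of 9, with median log2 differences of 1.78 in control, 1.20 in dKO and 1.99 in RA. The shares of all genes at 2-fold in the same direction were 1.35%, 0.515% and 4.40%, so the spread over all genes followed the same order, and at 2-fold in the other direction they were 1.40%, 0.722% and 6.16%; the rule used these contrasts and no test was made. The decrease from control to dKO was widest for Sned1 (2.55 to 1.16) and Synpo (2.09 to 1.06). For Nav3, Ak1, Rnf182 and Olfml3 it was under 0.1, and with median scaling their difference was larger in dKO than in control (1.77 against 1.67 for Nav3, 1.29 against 1.14 for Ak1, 1.18 against 1.05 for Rnf182 and 1.14 against 1.05 for Olfml3). Quantile normalization gave the same order (1.81 against 1.61, 1.3 against 1.2, 1.2 against 1.01 and 1.15 against 1.05), and a floor at 100 turned it for Nav3 (1.71 against 1.54) and no floor for Rnf182 (1.07 against 1.05). Of 152 genes that were 2-fold proximal in control and measured in dKO, 147 had a smaller difference in dKO. They were chosen by a high control difference, which in itself favours a smaller one in another pair. Nothing is therefore read from that count. In RA, Fap (4.64 against 3.28 in control) and Mn1 (2.87 against 1.85) widened most, and Synpo narrowed (1.59 against 2.09). Of 151 genes 2-fold proximal in control and measured in RA, 59 had a larger difference there; the 9 genes were selected on the RA pair too, which those 151 were not. The proximal array of the RA pair is the one that stood apart, and its part in the wider differences was not tested.

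**Figure D2:**
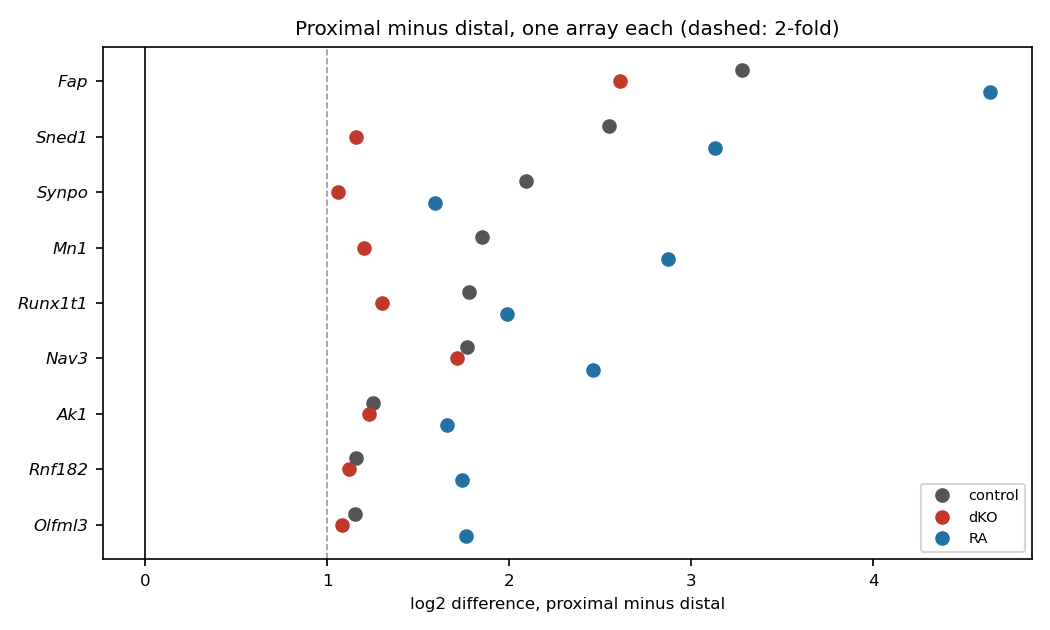
Proximal minus distal log2 difference of each gene in control, dKO and RA, from 1 array each; the dashed line marks 2-fold (log2 1), the criterion that chose the genes. All points lie at or beyond 1.06; the red dKO points are the leftmost for every gene, by under 0.1 from control for Nav3, Ak1, Rnf182 and Olfml3, for which median scaling and quantile normalization turn the order, and Synpo is the gene whose RA point is left of its control point.

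The dKO was examined by setting each of its arrays against the control array of the same part, which by genotype label differs in Ring1B and Cre and, if the control is wild type as described, in Ring1A too. It is a contrast the rule did not use, although the control and dKO arrays themselves entered it. In the distal part all 9 genes had a higher signal in dKO than in control (with arrays scaled to their medians 7 did, Nav3 and Ak1 being at -0.02 and -0.23), with a median log2 difference of 0.90 next to 0.01 over all genes. Of all genes measured there, 51.2% were higher. Sned1 (log2 1.94), Mn1 (1.55), Rnf182 (1.17) and Olfml3 (1.0) were 2-fold or more higher, 4 of 9, where 5.32% of 11646 genes were. Runx1t1 (0.90) and Synpo (0.73) followed, and Nav3 (0.33), Fap (0.37) and Ak1 (0.12) differed least. The selection required a low distal control signal, and that same array is the baseline here. Markers of some other cells were also higher on the distal dKO array: muscle precursor markers summed to 2589 against 1297 in control (3 of 5 measured genes 2-fold higher, median 1.01), and neural and Schwann markers to 2143 against 790 (4 of 6, median 1.41). With median scaling 2 and 3 genes of these lists were 2-fold higher (medians 0.65 and 1.05). Of the mesothelium and connective tissue lists 2 of 4 and 4 of 12 genes were 2-fold higher there (medians 0.79 and 0.36). With median scaling their medians were 0.44 and 0.00, and 0 mesothelium genes were 2-fold higher. Limb mesenchyme genes had 0 of 11 (-0.26). Not all marker lists were higher: surface ectoderm markers summed to 20504 against 20796 (median -0.07) and macrophage markers to 867 against 902 (-0.12). For somite and sclerotome markers the sum and the median differed in direction. They summed to 1873 against 1974, with a median of 0.86 (0.51 with median scaling). Of 6 measured genes 2 were 2-fold higher and 1 lower (1 and 1 with median scaling). The part of these cells in the values of the 9 genes was not tested.

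In the proximal part 7 of 9 were higher in dKO (6 with median scaling, Ak1 at -0.09), where 52.8% of all genes measured were. Rnf182 (1.13) was the 1 member 2-fold higher, against 4.07% of 11580 genes. Olfml3 (0.93), Mn1 (0.91), Sned1 (0.56) and Runx1t1 (0.42) were higher by less, and Fap and Synpo were both at -0.29. The median was 0.42, next to 0.02 over all genes. No member was 2-fold lower in either part, where 0.363% of genes were proximally and 0.524% distally. Dividing the arrays by their medians moved the median of all genes to -0.17 proximally and -0.35 distally, and left 0 members 2-fold higher proximally and 2 distally, Sned1 (1.59) and Mn1 (1.19). Of all genes, 2.83% were then 2-fold higher in proximal dKO (0.587% lower) and 2.76% in distal dKO (1.65% lower).

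Relative to the proximal control signal, the distal dKO signal ranged widely among the 9 genes, and Rnf182 was the 1 gene in which it reached that level. It was 101% for Rnf182, 90.4% for Olfml3, 81.3% for Mn1 and 65.6% for Sned1, where the distal control signal was 44.9%, 45.0%, 27.8% and 17.0%. Runx1t1 went from 29.1% to 54.4% and Synpo from 23.5% to 39.0%. For Nav3 (29.3% and 36.8%) and Ak1 (42.1% and 45.8%) the distal signals of both conditions were close, as they were for Fap. These are ratios of single arrays before any rescaling.

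The condition effect averaged over both parts was tested in limma with condition and part as additive terms, fitted to 12147 genes on all 6 arrays with Benjamini-Hochberg adjustment. It has 2 residual degrees of freedom, and its error is the disagreement of an effect between parts, not a spread between replicates. For dKO against control 0 of 9 members passed an adjusted p of 0.05, while 269 genes rose (2.21%) and 14 fell (0.115%). At an unadjusted p under 0.05, 5 members were higher and 0 lower, against 10.7% and 0.963% of all genes: Rnf182 (log2 1.15, SE 0.26, adjusted p = 0.102), Olfml3 (0.97, SE 0.27, adjusted p = 0.172), Mn1 (1.23, SE 0.39, adjusted p = 0.240), Sned1 (1.25, SE 0.44, adjusted p = 0.306) and Runx1t1 (0.66, SE 0.24, adjusted p = 0.323). For these 5 genes the dKO signal was higher in 2 of 2 parts. The control and dKO arrays also entered the choice of the 9 genes, so nothing further is read from the 5 of 9. Without the RA pair the same 5 genes passed, with adjusted p from 0.00271 for Mn1 to 0.0200 for Sned1 and Runx1t1. That fit has 1 residual degree of freedom and, of 11878 genes tested, called 1000 higher and 135 lower. The other 4, Fap, Nav3, Synpo and Ak1, had effects of 0.04 to 0.30 with adjusted p of 0.892 to 1.

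For RA against control, each part was again compared on 1 array. Both RA arrays entered the rule, which required a high proximal signal in the RA pair. The genotype label, the sex-linked transcripts and the spike-in also differ between RA and control. Proximally 8 of 9 were higher in RA, where 50.8% of all genes measured were. Sned1 (2.02) and Fap (1.62) were 2-fold higher, 2 of 9, against 3.69% of 11521 genes. Nav3 (0.81), Rnf182 (0.63), Mn1 (0.53), Olfml3 (0.49), Synpo (0.29) and Ak1 (0.03) were higher by less, and Runx1t1 was at -0.35. Distally only Sned1 (1.45) was 2-fold higher among the 9, where 2.16% of 11388 genes were, and the median was 0.04. Synpo (0.79), Fap (0.26), Nav3 (0.12) and Rnf182 (0.04) were above 0 there, the last pair only without rescaling (-0.08 and -0.15 with median scaling), and Runx1t1 (-0.55), Mn1 (-0.49), Ak1 (-0.39) and Olfml3 (-0.12) below. No member was 2-fold lower in either part, where 6.8% of genes were proximally and 2.13% distally. In limma 0 of 9 members passed for RA, while 37 genes rose (0.305%) and 29 fell (0.239%). Sned1 was the 1 member at an unadjusted p under 0.05 (log2 1.73, SE 0.44, adjusted p = 0.160), against 6.89% of genes higher and 9.84% lower at that level, and it was higher in RA in 2 of 2 parts. Without the dKO pair Sned1 passed (adjusted p = 0.00352), with 142 of 11822 genes tested higher and 166 lower.

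The dKO and RA comparisons share the control arrays, so their values stand side by side only. Sned1, Nav3 and Rnf182 were higher than control in both parts of both conditions, Sned1 by 2-fold or more except in proximal dKO (0.56). With median scaling Nav3 was below control in distal dKO (-0.02) and distal RA (-0.08), and Rnf182 in distal RA (-0.15). Rnf182 was 2-fold higher in both dKO parts but 0.63 and 0.04 in RA. Fap was 2-fold higher only on the proximal RA array among the 4 comparisons with control. The difference between dKO and RA was not tested.

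**Figure D3:**
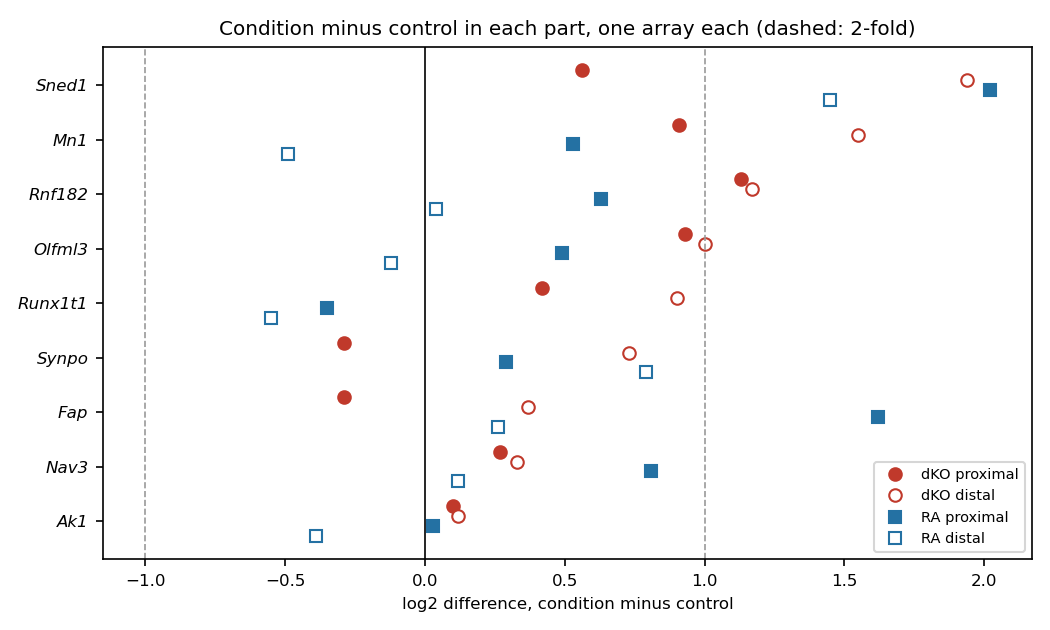
Log2 difference of each gene from the control array of the same part, for dKO (red circles) and RA (blue squares), filled for proximal and open for distal; dashed lines mark 2-fold. The open red circles of Sned1 (1.94), Mn1 (1.55), Rnf182 (1.17) and Olfml3 (1.0) lie at or beyond 2-fold, as do the filled red circle of Rnf182 (1.13), both squares of Sned1 (2.02 and 1.45) and the filled square of Fap (1.62).

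Runx1t1 has 6 probe sets, of which 5 were above the floor, and is the 1 gene whose pattern can be read more than once from the same RNA. The proximal excess appeared in all 5: the log2 difference was 1.13 to 1.78 in control, 0.62 to 1.5 in dKO and 0.67 to 2.36 in RA, the last a bound because the distal RA signal of that probe set (37.9) was below its floor. In 3 of the 5 it was 2-fold in every pair. The dKO difference from control was positive for all 5 in both parts, 0.13 to 0.98 proximally and 0.39 to 1.41 distally. The RA difference was not shared. Probe set 1437784_at, the brightest, was lower in RA in both parts (-0.35 and -0.55), whereas 1440310_at was higher in both, with signals of 160 and 66.8 in control and 522 and 122 in RA (1.71 and 0.87). Probe set 1444615_x_at, whose suffix marks probes that may bind other transcripts, was lower (-1.06 and -0.23), and 1427640_a_at (0.14 and -0.20) and 1448785_at (0.45 and -0.53) differed in sign between the parts. No direction for RA can therefore be given for Runx1t1 as a gene. The sources used here do not say which transcript each probe set reads.

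**Figure D4:**
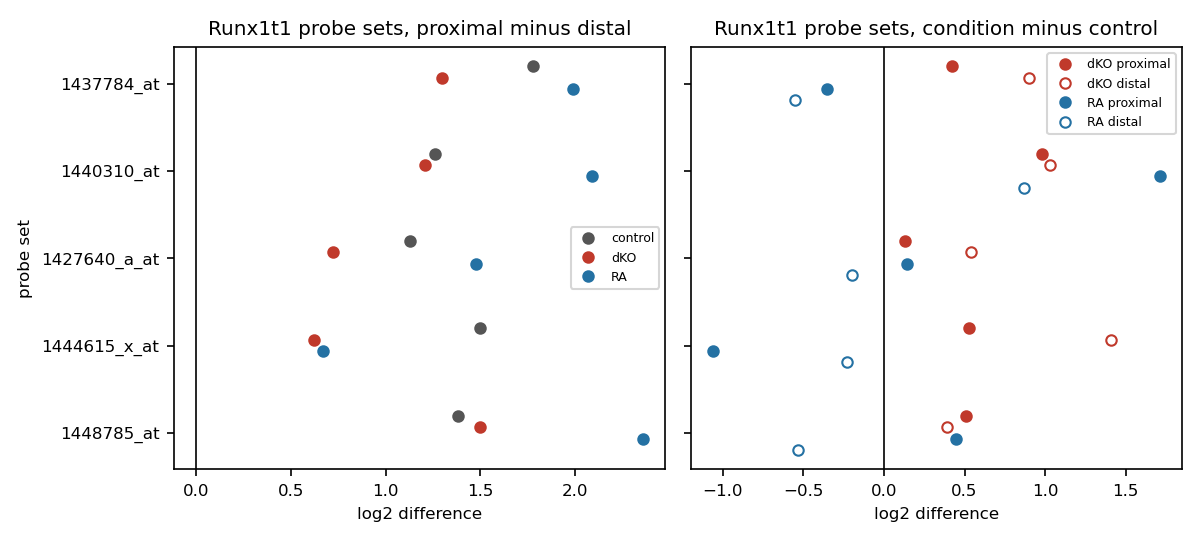
Log2 differences of the 5 Runx1t1 probe sets above the floor (rows; the uppermost, 1437784_at, stands for the gene), left for proximal minus distal in the 3 conditions and right for dKO and RA against the control array of the same part, filled for proximal and open for distal. All proximal minus distal points and all red dKO points lie right of 0; the blue RA points spread from -1.06 to 1.71.

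The 9 genes had similar profiles over the 6 arrays, which the choice of a proximal excess in itself produces: Pearson r between pairs of members was 0.70 to 0.996 with a median of 0.88 over 36 pairs. Among 3252 genes above the floor on at least 3 arrays and varying at least 2-fold, the mean profile of the members was most like that of Gsc (r = 0.996), a homeobox gene of limb and head mesenchyme, then Ebf2 (0.994), a transcription factor of mesenchymal lineages, Slc12a5 (0.993), a chloride transporter, Dact1 (0.986), a WNT pathway modulator, and Hoxd3 (0.979). Gsc, for example, read 377 proximally against 20.1 distally in control, 467 against 140 in dKO and 826 against 35.0 in RA, with 2 distal values below the floor. Rnf182 and Olfml3 were each other's nearest profile (r = 0.996). Nearest to the others were Gng2 for Fap (0.992), Gja4 for Sned1 (0.991), Prex1 for Nav3 (0.990), Efna5 for Mn1 (0.991), Ackr3 for Runx1t1 (0.997), Cxcl12 for Synpo (0.983) and Hpgd for Ak1 (0.979). These correlations rest on 6 arrays that share their scaling, and genes are not independent replicates.

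The other 15 genes that met the proximal criterion include the muscle precursor gene Lbx1, the chemokine Cxcl12, the transcription factors Gsc, Ebf2, Sim2, Pax1, Eya1 and Glis3, the signalling components Bmpr1b, Ror1 and Dact1, and Fibin, Dpep1, Zcchc12 and Pcdh8. Of these, Lbx1 and Ror1 were above the floor on all arrays. Their proximal minus distal difference was smaller in dKO than in control for 13 of 15 and larger in RA for 9 of 15, against 9 of 9 (5 with median scaling or quantile normalization) and 8 of 9 for the members. Of all genes measured, 5331 of 11155 had a smaller difference in dKO and 6004 of 11062 a larger one in RA. Both sets were chosen on these differences, and the 15 were not read with rescaled arrays. Nothing is therefore read from these counts.

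Relatives and partners of the 9 proteins were read from 9 lists with 54 entries, of which 50 were on the array. In control 26 were measured, and 0 were 2-fold higher and 2 lower proximally (against 1.35% and 1.40% of all genes): Synpo2 (-1.09), a synaptopodin relative, and the chordin-bound ligand Bmp4 (-1.09). In dKO 0 of 30 were 2-fold either way between the parts, where 0.515% of all genes were higher and 0.722% lower proximally. In RA 1 of 26 was higher, Olfml1 (1.42), against 4.40% of all genes, and 2 were lower, against 6.16%: the Runx1t1 relative Cbfa2t3 (-2.13) and Bmp4 (-1.27). The proximal excess was thus not seen at 2-fold in Nav1 or Nav2 (control 0.13 and -0.54), in the nidogens Nid1 and Nid2 (-0.48 and 0.08) or in the adenylate kinases Ak3, Ak4 and Ak5 (-0.01, -0.20 and -0.24). The Fap relatives Dpp8 and Dpp9 were at 0.14 and 0.04. Rnf152, Rnf183 and Rnf186, which resemble Rnf182, were below the floor on every array. For dKO against control limma called 2 of 31 relatives, both higher, against 2.21% of all genes: Ak5 (log2 1.59, SE 0.26, adjusted p = 0.0359) and Runx3 (adjusted p = 0.0288), which was below the floor outside dKO, so that its fitted size depends on the floor; the proximal control signal of Ak5 (59.8) was also below its floor. For RA it called 0 of 31.

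Proximal limb genes, which were on a list of 12 measured genes, varied among themselves. In control 4 were 2-fold higher proximally and 0 lower (median 0.50), in dKO 0 (0.14) and in RA 3 (0.20). Of all genes, 1.35%, 0.515% and 4.40% were 2-fold higher proximally in control, dKO and RA, and 1.40%, 0.722% and 6.16% lower. Meis1 and Meis2, homeobox factors of the proximal limb, are examples: the log2 difference of Meis1 was 1.61 in control, 0.28 in dKO and -0.08 in RA, and that of Meis2 was 1.43, 0.63 and 0.52. Irx3, another homeobox gene of the list, had 3.65, 0.79 and 1.98. Irx5 (2.08, 1.0 and 1.57) and Meis3 (0.86, 0.82 and 1.91) were closer to the 9 genes, whose lowest value of 1.06 follows from their selection. Of 13 distal limb genes measured in control, 0 were higher proximally and 4 lower (median -0.57), in dKO 0 of 12 lower (-0.51) and in RA 7 of 13 lower (-1.46), with 0 higher in either.

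Markers of other cells differed between the parts as well, and fewer cells of a type and less RNA per cell cannot be told apart in these bulk samples. The shares of all genes 2-fold higher proximally were 1.35%, 0.515% and 4.40% in control, dKO and RA, and 2-fold lower 1.40%, 0.722% and 6.16%. Muscle precursor markers had summed signals of 4121 to 5845 on the proximal and 972 to 2589 on the distal arrays, with 2 of 4, 2 of 5 and 3 of 6 measured genes 2-fold higher proximally in control, dKO and RA, and Pax7 2-fold lower in RA (-1.26); Myod1 and Myog, which mark later muscle cells, were below the floor throughout. Somite and sclerotome markers summed to 2955 to 7230 proximally and 1873 to 2649 distally, the highest value on the proximal RA array, with 3 of 5, 2 of 6 and 3 of 5 higher. Endothelial markers summed to 4465 to 6504 and 3393 to 4759, with 0, 0 and 3 of 10 higher, and surface ectoderm markers to 10390 to 13528 and 14858 to 20796, with 2, 3 and 2 of 12 lower proximally. Connective tissue and tendon genes summed to 12331 to 15843 and 8113 to 12650, with 3 of 9, 0 of 11 and 5 of 9 higher and 1 gene lower in control (Osr2, -1.03) and in RA (Pdgfrb, -1.27), and Dcn, Lum and Dpt were below the floor on every array. Their part in the values of the 9 genes was not tested.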

How the data were processed

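RNA from proximal and distal forelimb buds in 3 conditions was measured on 6 one-colour arrays, 1 per group. The deposited values are signal intensity on a linear scale, made by the authors with MAS5 per the submitters' processing notes (version not given in the sources used here); each array has a mean of 500 once the lowest and highest 2% of its 45101 probe sets are trimmed. The table has no detection calls, and the number of arrays limits the precision.

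Gene names came from the platform annotation: 34945 probe sets that are not controls have 1 symbol, 932 several and 9211 none; 34741 matched RefSeq by gene ID. A gene was read from its brightest probe set by mean log2 signal. Signals below the array median were set to it before log2, and a gene was measured in a comparison when 1 array was above. Condition effects were tested with limma 3.58.1 (trended prior variance, 4.64 prior degrees of freedom) over 12147 genes. On simulated data with 200 genes changed, averaged over 20 draws, 20.4% of the 2-fold and 87.8% of the 4-fold changes were called, and 5.31% of calls were false. The simulated noise was independent and normal, drawn from the variances limma had fitted. These rates hold for that noise and are not the error rates of the real calls. Differences from a floored signal are bounds.

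Members and lists were chosen with earlier results of these data known. Outside the members, the text names genes 2-fold proximal in all pairs, genes with the most similar profiles, called or 2-fold list members, genes that check the labels, and a few relatives and markers chosen after their values were seen.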

Additional observations from a re-analysis of the deposited data

Results flagged for a closer look

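For 5 member and condition pairs the single proximal and single distal array differed from control in opposite directions, and the difference between the parts was not tested. In dKO, Synpo was at -0.29 proximally and 0.73 distally (log2; proximal minus distal effect -1.03) and Fap at -0.29 and 0.37 (-0.67). In RA, Mn1 was at 0.53 and -0.49 (1.02), Olfml3 at 0.49 and -0.12 (0.61) and Ak1 at 0.03 and -0.39 (0.42). These effects restate the change of the proximal minus distal difference that the choice of the genes used. The RA values rest on the proximal RA array that stood apart. With median scaling 8 pairs had opposite signs, Nav3 in dKO (0.08 and -0.02) and RA (0.83 and -0.08) and Rnf182 in RA (0.65 and -0.15) being added, and with quantile normalization 7.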

How the results depend on the processing

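No paired analysis by replicate number was possible because the labels carry none; the proximal and distal arrays of a condition were matched by the part term of the limma model. With median scaling, the members 2-fold higher in dKO were 0 proximally and 2 distally (against 2.83% and 2.76% of all genes), and with quantile normalization 2 distally (against 3.62%). With the mean of all probe sets, which brings in probe sets at the floor, 6 members were 2-fold proximal in control, 4 in dKO and 5 in RA. The shares of all genes were then 0.868%, 0.266% and 2.51%. On the proximal arrays 7 members were higher in dKO than in control with that setting, and 0 were 2-fold higher, against 2.4% of all genes. The limma fit called 5 members for dKO without the RA pair and 1 for RA without the dKO pair, each on 4 arrays with 1 residual degree of freedom. Those fits called 1000 of 11878 and 142 of 11822 genes higher. Effects that did not pass changed sign for Fap in dKO (median scaling -0.23, quantile normalization -0.12, floor at 100 -0.15), for Synpo (-0.05) and Ak1 (-0.16) in dKO with median scaling, for Mn1 in RA with median scaling (-0.06), and for Runx1t1 in RA with the mean of probe sets (0.04); apart from the construction named for the mean of probe sets, the cause was not tested. The count of genes that rose in dKO, 269 in the main analysis, was 103 with median scaling, 80 with quantile normalization and 140 with the floor at 100; for RA the 37 that rose became 20, 13 and 6. With median scaling, which moved the split of genes 2-fold higher against lower, it was 124 and 196 between the parts in control (main 154 and 159), 84 and 67 in dKO (60 and 84) and 742 and 546 in RA (506 and 708), and distally 321 and 192 for dKO (620 and 61) and 159 and 424 for RA (246 and 243) against control. The other Runx1t1 probe sets were compared after seeing the data. Low signals limit the distal values of Fap and Nav3.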
